A study of Mus musculus with 30 samples.

Results

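The direct contrast of both single agents in bone marrow (BM) compared 6 libraries, 3 from recipients given the glucagon-like peptide-1 receptor (GLP-1R) agonist beinaglutide and 3 from recipients given an anti–IL-17A antibody, out of 30 libraries in the series. The libraries were chosen by their sample labels and not by any measured value. The comparison asked in which genes BM of mice treated with one agent differed from BM of mice treated with the other. All 13353 genes of the BM count table were tested.

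All 6 libraries came from Ob/Ob recipients, which lack leptin and become obese, although the genotype entry of every sample reads C57BL/6J. The recipients had been irradiated (700 cGy and 400 cGy) and transplanted with CD45.2+ BM of Shp2E76K/+;LysM-Cre+ donors mixed with the same number of CD45.1+ Boy/J competitor BM cells, which do not carry the mutation. LysM-Cre is active chiefly in myeloid cells, which limits where the activating Shp2 allele is expressed. From 8 weeks after transplantation and for 30 days, 1 group received 3 mg/kg beinaglutide under the skin and the other 200 µg of antibody per mouse into the peritoneum 3 times per week. The labels give ages of 12 to 14 weeks, both sexes, 3 mice per group and 1 batch, while the methods give a younger range for the recipients at irradiation. The same fit held 3 libraries each of vehicle-treated Ob/Ob recipients, of Ob/Ob recipients given both agents (Combo) and of WT recipients, and their levels are given below for reference. These groups had the same irradiation, and the paper describes the same mix of Shp2E76K/+ and Boy/J cells in WT and Ob/Ob recipients. No treatment is given for the WT recipients.

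GLP-1 is a gut hormone that raises insulin secretion and lowers food intake through its receptor. IL-17A is a cytokine made chiefly by T cells and innate lymphocytes, and it acts on stromal, epithelial and myeloid cells to induce chemokines and growth factors that raise the output of neutrophils. BM holds precursors of every blood lineage, and a gene that marks one lineage can be low in a bulk library for different reasons. Fewer cells of a type and less RNA per cell cannot be told apart in these samples.

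Counts on genes ranged from 31086184 to 36181282 in libraries of the GLP-1R agonist and from 32662280 to 36968230 with the antibody. The biological coefficient of variation over the 15 BM libraries was 3.51%, so very small differences passed the test, and whether this spread holds the full difference between mice was not tested. Replicates of both groups differed by more than counting noise, with a chi-square per degree of freedom of 2.02 to 3.22. The first WT library stood apart from the other WT libraries (34.8 and 26.7 for its pairs, 2.94 for the remaining pair). Without it 789 genes were called in place of 779.

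In this contrast, 324 genes were called higher and 455 lower with the GLP-1R agonist than with the anti–IL-17A antibody, by edgeR's quasi-likelihood test at a Benjamini-Hochberg false discovery rate (FDR) below 0.05 and an absolute log2 fold change (log2FC) above 1. These were 2.43% and 3.41% of the genes tested, 5.83% together. The FDR alone was passed by 4213 genes in the higher and 4163 in the lower direction, 31.6% and 31.2% of those tested. The median log2FC of all genes was 0.01, and the middle range between quartiles ran from -0.27 to 0.27. Groups did not overlap for 69% of all genes. When the test was made against that limit itself (glmTreat), 40 genes were higher and 176 lower.

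**Figure D1:**
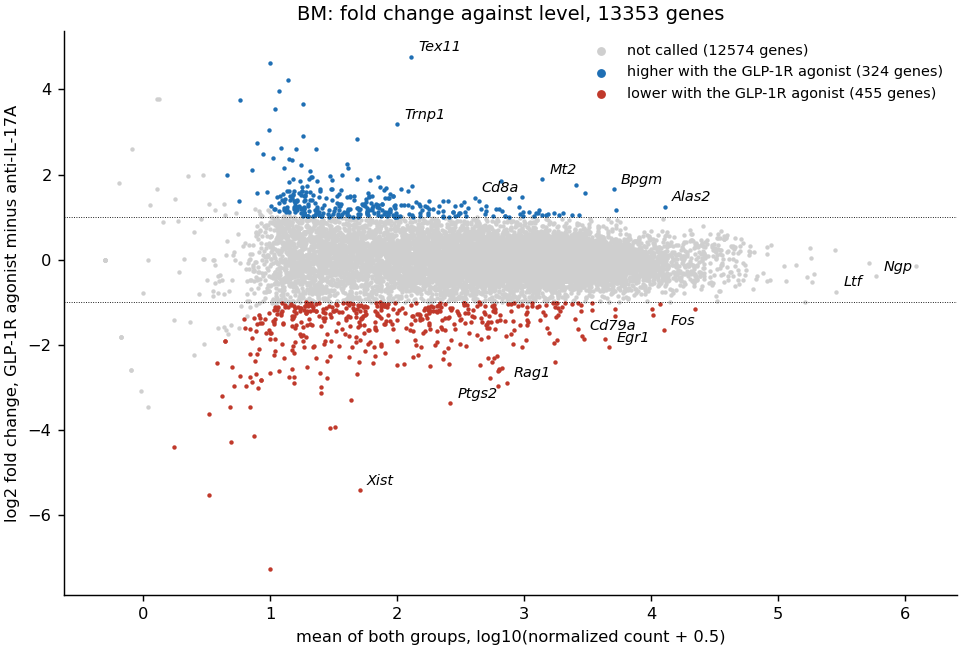
Each point is 1 of 13353 genes, with the mean of both groups on the x axis (log10 of the normalized count plus 0.5) and the log2FC, GLP-1R agonist minus anti–IL-17A, on the y axis. Called genes are coloured, 324 above and 455 below the dotted lines at 1 and -1, and the most counted granule gene labelled, Ngp, lies at -0.39.

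Genes of developing B cells were the list with the largest difference. Of 20 early B cell genes, all of which were tested, 16 were lower with the GLP-1R agonist, 0 were higher, and the median log2FC was -2.08. B lymphopoiesis starts from progenitors that switch on the transcription factors Ebf1 and Pax5, rearrange their heavy-chain genes with the Rag recombinase and the polymerase Dntt, and then display a pre-B receptor made with the surrogate light chains Vpreb1 and Igll1.

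Rag1, the catalytic subunit of the recombinase (chromosome 2, 101638282 to 101649501 of GRCm38), had 160, 179 and 181 normalized counts in the libraries of the GLP-1R agonist and 1357, 1179 and 1312 in those of the antibody. Normalized counts here are counts scaled by the effective library size. The groups did not overlap, and the log2FC was -2.89 (SE = 0.0745, edgeR adjusted p = 5.36e-29). Dntt, the polymerase that adds bases at the joints, had 143, 122 and 146 against 952, 951 and 918 normalized counts, with a log2FC of -2.78 (edgeR adjusted p = 4.32e-29). For both genes every antibody library lay above every library of the agonist.

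Vpreb3, a chaperone-like protein of the pre-B receptor, showed the steepest fold of the list, with 140, 145 and 140 normalized counts against 1077, 1157 and 1062 and a log2FC of -2.96 (SE = 0.0807, edgeR adjusted p = 7.94e-29). Igll1 had 211, 214 and 210 against 1024, 1019 and 981 normalized counts (log2FC -2.25). Vpreb1 and Vpreb2, near-identical copies for which only uniquely mapped reads were counted, had log2FC values of -2.32 and -1.99. In each of these genes the groups did not overlap.

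The transcription factor Ebf1 fell from 755, 779 and 748 normalized counts with the antibody to 148, 133 and 132 with the GLP-1R agonist, with a log2FC of -2.46 (SE = 0.0778, edgeR adjusted p = 5.56e-27). Pax5, which fixes the B cell identity, had 80.6, 76.3 and 101 against 364, 419 and 367 normalized counts (log2FC -2.17). Bach2, a repressor that acts in B cell progenitors, had a log2FC of -2.60, Akap12, a kinase-anchoring protein, one of -2.58, and Sox4, a factor needed by early B progenitors 54.6% of whose exons overlap another gene, one of -1.47. Cd79a and Cd79b, which carry the signal of the B cell receptor complex in pre-B and mature B cells, had smaller folds. Cd79a had 1291, 1298 and 1276 against 4510, 4331 and 4472 normalized counts, with a log2FC of -1.78 (SE = 0.0346, edgeR adjusted p = 5.83e-34), and Cd79b one of -1.38.

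The other 4 members of the list are also expressed outside the B lineage. Erg and Myb, factors of progenitors of many lineages, passed the FDR but not the fold limit, at -0.68 and -0.54. The IL-7 receptor gene Il7r, which T cells and innate lymphocytes also use, had a log2FC of 0.04 (edgeR adjusted p = 0.688) and Cd24a, found on many blood cells, one of 0.03 (edgeR adjusted p = 0.383). Among 16 tested genes of mature B and plasma cells, 6 were lower and 0 higher, with a median of -0.58. The mature B cell genes Cd72 (-2.41, 41.6% of its exons overlapping another gene), Ms4a1, which encodes CD20 (-1.73), Fcer2a (-1.48) and Cr2 (-1.32) were among those 6. The plasma cell genes Prdm1 and Sdc1 passed the FDR in the other direction, at log2FC values of 0.89 and 0.49.

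**Figure D2:**
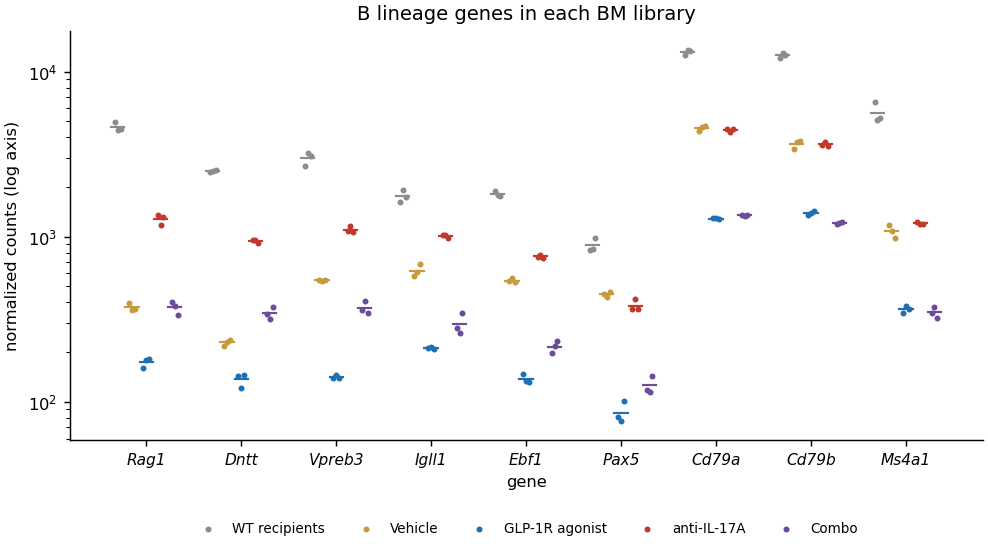
Normalized counts (log axis) of 9 B lineage genes in each of the 15 BM libraries, with a line at each group mean of 3 libraries. For each gene the 3 libraries of the GLP-1R agonist lie below the 3 of anti–IL-17A, for Rag1 at 160 to 181 against 1179 to 1357, and the WT libraries lie above both.

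The other groups of the fit placed these levels as follows. Mean normalized counts of Rag1 were 4615 in WT recipients, 376 with vehicle, 173 with the GLP-1R agonist, 1283 with the antibody and 375 with Combo. For Cd79a the means were 13170, 4552, 1288, 4438 and 1346 in the same order. The 2 genes thus differed in where the vehicle group stood, near the agonist end for Rag1 and at the antibody level for Cd79a. For Cd79a the means of the agonist and Combo groups were the lowest of the 5, while for Rag1 the agonist mean was the lowest and the Combo and vehicle means were level.

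Immediate early genes were the second list with a large difference. They encode transcription factors and feedback regulators that are transcribed within minutes of a growth factor, cytokine or stress signal, and handling of cells can also raise them. Of 24 tested, 11 were lower with the GLP-1R agonist and 0 higher, 22 passed the FDR in the lower direction, and the median log2FC was -0.99. Fos, a subunit of the AP-1 dimer, had 6182, 5920 and 6052 normalized counts with the agonist and 18760, 19490 and 18950 with the antibody. Its log2FC was -1.66 (SE = 0.0257, edgeR adjusted p = 4.96e-37), with no overlap between the groups.

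Egr1, a zinc finger factor of the same response, had 1786, 1790 and 1890 against 7500, 7530 and 7558 normalized counts, with a log2FC of -2.05 (SE = 0.0326, edgeR adjusted p = 7.21e-37). Its relatives Egr3 (-1.90) and Egr2 (-1.62), the AP-1 members Fosb (-1.71) and Jun (-1.32), the nuclear receptor Nr4a1 (-1.34), the stress-response factor Atf3 (-1.40) and Zfp36, which destabilizes cytokine mRNAs (-1.16), were lower as well. Fosl1 had a log2FC of -2.65 from few counts, and 57.2% of its exons overlap another gene. Junb and Klf2, both at -0.99, lay just inside the fold limit, and Nr4a3 had a log2FC of 0.01 (edgeR adjusted p = 0.985).

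Levels of these genes were not ordered in one way across the groups. Mean normalized counts of Egr1 were 4249 in WT recipients, 1412 with vehicle, 1822 with the GLP-1R agonist, 7530 with the antibody and 6039 with Combo, and those of Jun were 5823, 10690, 3000, 7474 and 7645. The sum of the list, in CPM (counts scaled to a common library size), ranged from 2350 to 2370 with the agonist and from 4610 to 4740 with the antibody. Heat shock and unfolded protein response genes, 25 tested, had a median of -0.16, with 0 called higher and 1 lower, Atf3, which is on both lists. Of all genes 5.83% were called. The FDR was passed by 13 of the 25 in the lower and 6 in the higher direction. The summed level of this list was 5900 to 5930 CPM with the agonist and 6390 to 6480 CPM with the antibody. The part of sample handling in the immediate early genes was not tested.

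Inflammatory mediators that myeloid cells make soon after a stimulus went the same way. Ptgs2, the inducible cyclooxygenase (chromosome 1, 150100031 to 150108227), had 50.6, 57.9 and 27.6 normalized counts with the GLP-1R agonist and 467, 449 and 513 with the antibody, with a log2FC of -3.37 (SE = 0.183, edgeR adjusted p = 1.79e-12). Osm, a cytokine of the IL-6 family, had 1846, 1873 and 1846 against 6761, 6959 and 6603, with a log2FC of -1.87 (edgeR adjusted p = 1.58e-35). Both genes thus had groups far apart, with the vehicle group near the agonist for Ptgs2 (mean 52.3) and in between for Osm (4268).

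Of 18 tested inflammatory cytokine genes, 6 were lower and 1 higher, with a median of -0.46. Besides Osm, the interleukin-1 receptor antagonist Il1rn (-1.54), Il1b (-1.07) and Il15 (-1.05) were among the lower genes, and Il6, with 89.1, 46.5 and 67.5 against 38.6, 20.7 and 29.0 normalized counts, was the higher one (log2FC = 1.21, edgeR adjusted p = 2.88e-05). Tnf had a log2FC of -0.15. The neutrophil chemoattractant Cxcl2 had a log2FC of -1.47 and the monocyte chemoattractant Ccl2 one of -1.54. In 17 tested genes known as targets of IL-17, 5 were lower with the GLP-1R agonist and 1 was higher, with a median of -0.40. The 5 were Ptgs2, Ccl2, Cxcl2, the metalloreductase Steap4 (-1.35) and Nfkbiz (-1.01), a cofactor of IL-17 responses. Mean normalized counts of Ccl2 were 3054 with vehicle, 28.01 with the agonist and 81.65 with the antibody. Those of Cxcl2 were 3294, 568 and 1572 in the same order, and those of Steap4 93.15, 143.5 and 365.1. The vehicle mean thus lay above both groups for Ccl2 and Cxcl2 and below both for Steap4.

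**Figure D3:**
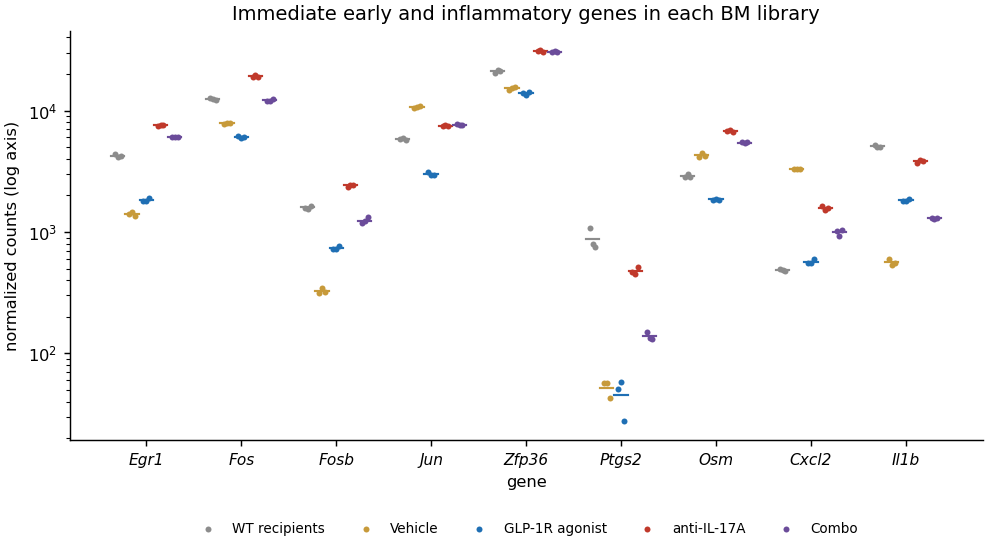
Normalized counts (log axis) of 9 immediate early and inflammatory genes in each of the 15 BM libraries, with a line at each group mean of 3 libraries. In every gene shown the 3 libraries of the GLP-1R agonist lie below the 3 of anti–IL-17A, for Fos at 5920 to 6182 against 18760 to 19490, while the vehicle libraries lie below, between or above them depending on the gene.

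IL-17 and GLP-1 pathway genes were read next. Il17a, the antibody's target (chromosome 1, 20730905 to 20734496), had 0 counts in the 3 libraries of the GLP-1R agonist and 1, 0 and 0 in those of the antibody, so that no fold can be given. Il17f had 3.07 to 8.77 against 0.90 to 6.09 normalized counts (edgeR adjusted p = 0.434), which was not detectable as a difference at this depth. With vehicle, Il17a had 18, 21 and 28 raw counts and Il17f a mean of 32.1 normalized counts. Il17ra, the receptor subunit shared by IL-17 cytokines, had 12610 ± 228 and 13210 ± 206 normalized counts (SD, n = 3), with a log2FC of -0.07. Of 9 tested IL-17 cytokine and receptor genes and 12 tested GLP-1, insulin and adipokine receptor genes, 0 were called by edgeR, against 5.83% of all genes, a share that would give about 1 gene in lists of this length. The FDR was passed by 3 and 10 of them, and log2FC values of the second list ran from -0.99 to 0.65. Glp1r and Il17rc were not analysed here. Ptpn11, which encodes Shp2, had 4822 ± 53.9 and 4780 ± 54.3 normalized counts (edgeR adjusted p = 0.725).

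Interferon-stimulated genes were lower with the GLP-1R agonist as well. Type I interferons signal through a complex of STAT factors and IRF9, which binds an interferon-stimulated response element (ISRE) at antiviral genes. Of 39 tested, 12 were lower and 0 higher, and the median log2FC was -0.62. Oasl2, of the oligoadenylate synthetase family that senses double-stranded RNA, had 166, 195 and 229 against 1134, 1147 and 1116 normalized counts, with a log2FC of -2.53 (SE = 0.0621, edgeR adjusted p = 1.04e-30). Oas3 had 754, 780 and 796 against 2934, 2950 and 2727 normalized counts, with a log2FC of -1.89 (edgeR adjusted p = 7.3e-34).

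Members of the Oas family (Oas1a -1.88, Oas1g -1.94, Oas2 -1.77), the receptor-transporting protein Rtp4 (-2.03) and the DNA sensor Ifi204 (-1.60) were lower too. Oas genes are close relatives that lie together on chromosome 5, and only uniquely mapped reads were counted for them. The list did not go one way throughout. Ifi44 (-0.98), Ifih1 (-0.06), Stat2 (0.03) and Phf11d (-0.06) did not pass the FDR, and 4 genes passed it in the other direction, Siglec1 (0.57), Rsad2 (0.50), Isg20 (0.38) and Ifit2 (0.23). Both treated groups lay far below the vehicle group, in which the list summed to 15100 to 15200 CPM, against 882 to 895 with the agonist, 1280 to 1300 with the antibody and 1930 to 1950 in WT recipients. Among 17 tested interferon-gamma GTPases, 1 was lower, Gbp3, with 287, 281 and 317 against 586, 596 and 588 normalized counts, at the fold limit.

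Promoters show the ISRE in several of these genes. The core searched was GAAANNGAAA on either strand, in the 250 bases before the transcription start of RefSeq genes (GRCm38.p6). It was present in 3.46% of all 27025 promoters, in 12 of the 27 list members with a promoter in the table and in 5 of the 6 called ones. The windows below are shown because these 4 called genes share the core, which is in capitals, and each is written along its gene's strand.
Oas3: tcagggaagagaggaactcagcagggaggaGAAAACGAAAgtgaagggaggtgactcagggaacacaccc
Oas1a: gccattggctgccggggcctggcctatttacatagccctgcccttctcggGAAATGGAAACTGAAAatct
Ifit1: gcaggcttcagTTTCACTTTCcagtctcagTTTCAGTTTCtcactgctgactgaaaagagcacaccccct
Ifit3b: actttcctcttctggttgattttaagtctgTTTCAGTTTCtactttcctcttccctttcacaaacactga
They lie at chr5:120777695-120777764 and chr5:120907526-120907595 on the minus strand and at chr19:34640774-34640843 and chr19:34607773-34607842 on the plus strand. In Oas1a 2 matches overlap, and in Ifit1 there are 2 separate ones. The log2FC values of Ifit1 and Ifit3b were -1.11 and -1.64.

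Immediate early genes were read in the same way for TGACG on either strand, the core of the cAMP response element bound by CREB and ATF factors. It was present in 19.8% of all promoters and in 30.2% of those of tested genes, against 13 of 20 list members and 6 of 8 called ones with a promoter in the table. The 4 called genes below hold it, in capitals.
Fos: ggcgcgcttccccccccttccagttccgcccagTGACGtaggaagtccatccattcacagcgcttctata
Fosb: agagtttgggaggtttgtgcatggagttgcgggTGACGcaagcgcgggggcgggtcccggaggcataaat
Nr4a1: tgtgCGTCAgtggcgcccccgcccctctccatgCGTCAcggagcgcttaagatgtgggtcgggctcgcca
Atf3: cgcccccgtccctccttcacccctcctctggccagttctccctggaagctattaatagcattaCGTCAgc
These windows are chr12:85473791-85473860 (plus), chr7:19310069-19310138 (minus), chr15:101266773-101266842 (plus) and chr1:191183334-191183403 (minus). A match of letters is a description and does not show that a factor was bound in these cells.

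Erythroid genes were higher with the GLP-1R agonist. Of 27 tested genes of red cell precursors and heme synthesis, 25 passed the FDR in the higher direction and 0 in the lower, although only 2 were past the fold limit, and the median log2FC was 0.46. Alas2, the first and rate-limiting enzyme of heme synthesis in red cells (chromosome X, 150547375 to 150570638), had 18060, 17800 and 18110 normalized counts with the agonist and 7437, 7509 and 7822 with the antibody. Its log2FC was 1.25 (SE = 0.0254, edgeR adjusted p = 1.99e-33), and 15.5% of its exons overlap other genes. Bpgm, whose product lowers the oxygen affinity of hemoglobin, had 7779, 7666 and 7758 against 2497, 2405 and 2481, with a log2FC of 1.65 (edgeR adjusted p = 1.3e-33).

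The remaining members had smaller folds, the lowest at -0.10, and 2 of the 27 did not pass the FDR. Those of the erythropoietin receptor Epor (0.93), the carbonic anhydrase Car1 (0.79), the heme enzyme Fech (0.64) and the factors Gata1 (0.53) and Klf1 (0.35) all passed the FDR. Tmcc2 (1.17) is not on the list and was among the 10 most counted genes called higher. Gfi1b, a repressor of red cell and platelet progenitors, had a log2FC of 1.05. The sum of the list was 8580 to 8650 CPM with the agonist and 5780 to 5890 with the antibody, above the 3530 to 3590 of the vehicle group, the 4210 to 4250 of Combo and the 4490 to 4550 of WT recipients. Globin genes were not analysed here.

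A GATA site (AGATAA or TGATAA, either strand), the motif bound by GATA1 in red cells, was in 18.8% of all promoters and in 11.8% of those of tested genes, against 10 of the 18 tested erythroid genes and 1 of the 2 called ones with a promoter in the table. In Alas2 it lies 80 bases before the start, and it is shown here because this gene has the most counts of the called erythroid genes. The window is chrX:150547299-150547368, plus strand.
Alas2: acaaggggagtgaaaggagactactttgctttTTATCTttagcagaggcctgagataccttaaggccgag

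T cell genes and part of the platelet genes were also higher. Of 20 tested genes of megakaryocytes and platelets, 4 were higher and 0 lower, with a median of 0.41, and the FDR was passed by 12 in the higher and 3 in the lower direction. Called were, among others, the chemokine Pf4 (1.04), the platelet receptor Clec1b (1.27) and the tubulin Tubb1 (1.10), and each of these 3 calls was lost with glmTreat. Gp9, a subunit of the platelet receptor for von Willebrand factor, was at 0.06 (edgeR adjusted p = 0.722). Of 22 tested T cell genes, 3 were higher and 0 lower, 18 passed the FDR in the higher direction, and the median was 0.62. Cd8a, a chain of the coreceptor of cytotoxic T cells, had 608, 624 and 559 normalized counts with the agonist and 211, 201 and 241 with the antibody, with a log2FC of 1.45 (SE = 0.0948, edgeR adjusted p = 9.84e-17). Its partner Cd8b1 had one of 1.11 and the inhibitory receptor Pdcd1 one of 1.09, while Cd4 was at 0.58 and the shared T cell genes Cd3e and Cd3g were at 0.65 and 0.27.

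**Figure D4:**
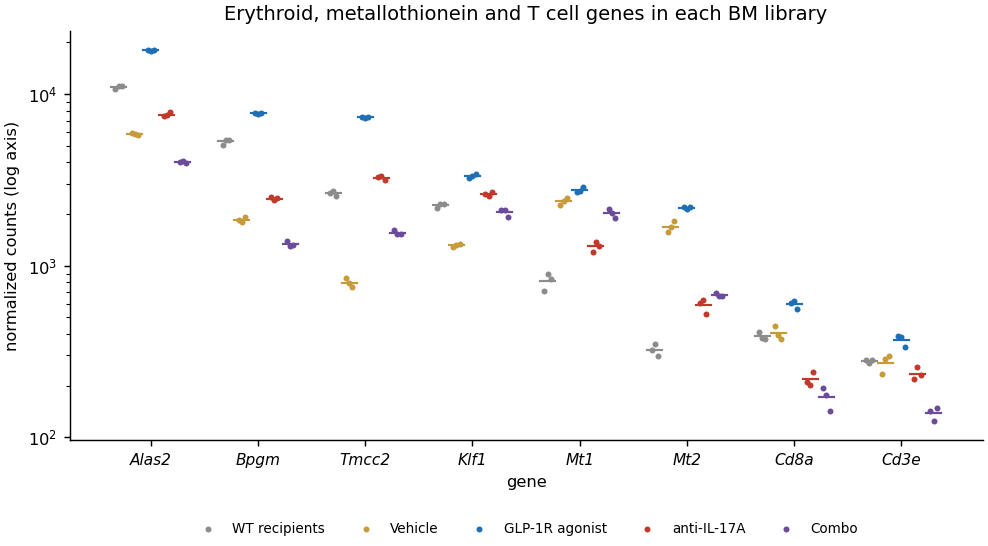
Normalized counts (log axis) of erythroid genes, the metallothioneins Mt1 and Mt2 and the T cell genes Cd8a and Cd3e in each of the 15 BM libraries, with a line at each group mean of 3 libraries. For all 8 genes the GLP-1R agonist lies above anti–IL-17A, for Alas2 at 17800 to 18110 against 7437 to 7822.

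Natural killer and dendritic cell genes went mostly the other way. Of 18 tested NK and cytotoxic genes, 4 were lower and 0 higher, and they included the NK receptor Ncr1, with 98.4, 92.0 and 68.5 against 225, 227 and 232 normalized counts (log2FC -1.40), and granzyme A, Gzma (-1.62). The median was -0.36, and the FDR was passed by 10 in the lower and 5 in the higher direction. Klrd1 (-0.43) passed the FDR but not the fold limit, and perforin, Prf1 (-0.19, edgeR adjusted p = 0.252), did not pass the FDR. Of 20 tested dendritic cell genes, 6 were lower and 2 higher, with a median of -0.81. Siglech, a receptor of plasmacytoid dendritic cells, had a log2FC of -1.27 and Cd209a one of -2.28. The 2 higher ones were Zbtb46 (1.36), a factor of conventional dendritic cells, and Cd8a, which is also on the T cell list.

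Neutrophil granule genes, which hold the most counted genes of these libraries, differed by less than the fold limit. Among 24 tested genes of secondary and tertiary granules, 0 were called by edgeR and 18 passed the FDR in the lower direction against 2 in the higher, with a median of -0.47. For 12 tested primary granule genes, 0 were called, 11 passed the FDR in the lower direction, and the median was -0.34. Of all genes 5.83% were called, so lists of this length would hold few calls at that share. Ltf, lactoferrin, had 213200 ± 508 and 359800 ± 3350 normalized counts (SD, n = 3), with a log2FC of -0.76. Camp did not differ beyond the test, at 0.04 (edgeR adjusted p = 0.125). Myeloperoxidase, Mpo, 15% of whose exons overlap another gene, was at -0.51. Of the most counted genes called lower, Chil1 (-1.31) and Hk3 (-1.15) are genes of neutrophils and other myeloid cells, and Ccr2 (-1.15) is the chemokine receptor of inflammatory monocytes.

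Monocyte and macrophage genes went both ways, and few were called. Of 30 tested, 0 were called higher and 3 lower, against 2.43% and 3.41% of all genes. The FDR was passed by 13 in the higher and 15 in the lower direction, against 31.6% and 31.2% of all genes. The median was -0.01. Cx3cr1, a chemokine receptor of circulating monocytes, had a log2FC of -1.43, and the receptor gene Csf1r one of -0.57. The complement genes of resident macrophages, C1qa, C1qb and C1qc, had log2FC values of 0.80, 0.86 and 0.95, the last of them the highest of the list. Of the other marrow macrophage markers, Vcam1 was at 0.47, Spic at 0.42 and Adgre1 at -0.19, all past the FDR. The lysosomal glycoprotein Gpnmb, which is not on this list, had one of 1.46. Fabp4, also not on it, a fatty acid carrier of macrophages and adipocytes, had 1148, 1108 and 1067 against 391.8, 458.5 and 367.3 normalized counts, with a log2FC of 1.45 (edgeR adjusted p = 6.95e-18). Of 11 tested adipocyte genes, Fabp4 was the only one called, against 5.83% of all genes.

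**Figure D5:**
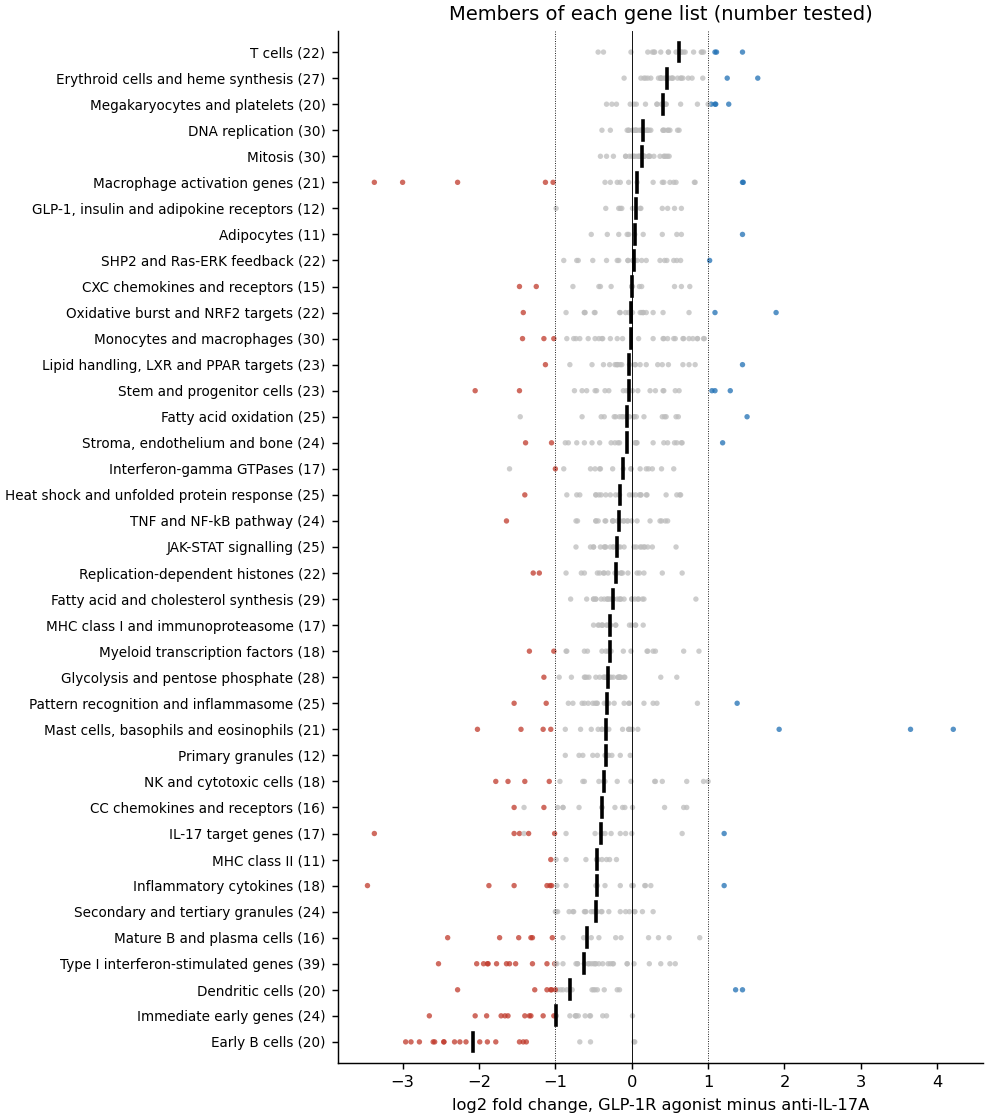
Each row is 1 gene list with at least 10 tested members (number in brackets), each point the log2FC of 1 member (GLP-1R agonist minus anti–IL-17A), coloured where called, and each black bar the median. Medians run from -2.08 for early B cells to 0.62 for T cells, and dotted lines mark the fold limit.

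Among 21 tested genes on the list of mast cells, basophils and eosinophils, the median log2FC was -0.34. The FDR was passed by 13 in the lower and 3 in the higher direction. The mast cell proteases Mcpt4, Tpsb2 and Cma1 were the 3 members called higher. Mcpt4 had 26, 32 and 23 raw counts with the agonist and 1, 2 and 1 with the antibody, a ratio of 20.3 (exact Poisson interval 7.64 to 76.4, 95%, counting error only). Tpsb2 had 38, 33 and 33 against 2, 4 and 2 raw counts. The 4 called lower were Ear1, Ear6, Prg3 and Siglecf, all genes of eosinophils, with log2FC values of -1.45, -2.02, -1.06 and -1.16. Ear genes are close relatives for which only uniquely mapped reads were counted.

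The largest single increase among genes with a mean of at least 50 normalized counts was that of Tex11, an X-linked gene known from meiosis in the testis (chromosome X, 100838648 to 101059667). It had 227, 280 and 240 normalized counts with the GLP-1R agonist and 7.11, 10.8 and 9.07 with the antibody, with a log2FC of 4.76 (SE = 0.229, edgeR adjusted p = 6.06e-21). Its means were 67.2 with vehicle, 11.2 in WT recipients and 0.35 with Combo. Trnp1, a nuclear protein of proliferating neural cells, followed, with 185, 157 and 196 against 17.3, 14.4 and 27.2 normalized counts and a log2FC of 3.18 (edgeR adjusted p = 2.41e-14). The metal-binding metallothioneins Mt2 (1.89, 73.5% of its exons overlapping another gene) and Mt1 (1.09) and the peroxiredoxin-like gene Fam213a (1.75) were higher as well.

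Xist, the long noncoding RNA that silences 1 X chromosome in female cells, had the largest decrease among the genes that the same rule picked, and its level reports the sex of the cells. It had 6, 1 and 0 raw counts with the GLP-1R agonist and 87, 104 and 125 with the antibody, a ratio of 44.9 (exact Poisson interval 21.6 to 113, 95%, counting error only). Its mean was 6544 normalized counts with vehicle, 3610 with Combo and 1.58 in WT recipients, and 12.6% of its exons overlap other genes, the antisense gene Tsix among them. Of the Y-linked genes, Eif2s3y had 2256 ± 125 and 2299 ± 24.9 normalized counts with the agonist and the antibody (SD, n = 3), against 1111 ± 56.7 with vehicle and 161 ± 23.2 with Combo. Ddx3y had 1912 ± 107 and 1473 ± 14.1, with no overlap and a log2FC of 0.38 (edgeR adjusted p = 3.09e-08), against 711.8 ± 26.9 with vehicle and 162.5 ± 15.1 with Combo. The libraries compared thus had nearly the same level of Eif2s3y but not of Ddx3y, and the vehicle and Combo groups lay below both for each gene. The labels describe the groups as matched for sex, and the part of sex in any difference was not tested. Fitted without the vehicle and Combo libraries, the contrast called 774 genes.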

How the data were processed

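BM RNA-seq counts of 15 libraries were used, 3 per group, with groups taken from the sample labels. Alignment by the authors used STAR 2.7.2a and mm10. Counting of uniquely mapped reads used featureCounts 2.0.1 and GENCODE M22 and required a mapping quality of 10. It ignored strand and credited a read to every gene it overlapped, so overlapping genes share reads. The deposited values are raw counts per gene. The smallest total of a gene was 55, and filterByExpr removed 0 genes. Counts of adipose tissue macrophages were not used here, and some genes that the rule below picks are not reported here.

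The analysis ran in R 4.3.3 and edgeR 4.0.16 (TMM scaling, 1 robust quasi-likelihood fit of the 15 libraries). All tests were 2-sided, and adjusted p-values are Benjamini-Hochberg values over all 13353 genes. Called genes had an FDR below 0.05 and a log2 fold change beyond 1 in either direction. SEs come from the F statistic. Each count was scaled by its effective library size (total times TMM factor) to give normalized counts at the mean size of the 15 libraries. The fit was tested on simulated data.

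Named genes are the 15 called genes with the largest log2 fold change in each direction (mean of at least 50 normalized counts, groups that do not overlap, no clone or predicted names), the 10 most counted called genes in each direction, up to 4 called members per list and direction (mean of at least 20), pathway and sex-linked genes, and markers. Other list members, gene families and promoter motifs were read after their values were seen. The members and lists were chosen with earlier results of these data known, so list counts carry no test. Gene positions and shared exons are from GENCODE M21 on GRCm38, promoters from RefSeq.

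Alternatives tried were edgeR with the size factors of DESeq2, DESeq2 1.42.0 itself, leaving genes unfiltered, a minimum of 10 counts in each of the 6 libraries, no fold limit, glmTreat, only the 6 libraries, a replicate block and leaving out each library. After seeing the data, fits without the vehicle and Combo libraries and without the first WT library were added.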

Additional observations from a re-analysis of the deposited data

How the results depend on the processing

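The fold limit was the choice that moved the counts most. Without it, 8376 genes passed (4213 higher, 4163 lower with the GLP-1R agonist), and of the list members 624 passed in place of 115, among them 35 type I interferon genes, 20 T cell genes, 25 erythroid genes and 22 immediate early genes. Tested against a log2 fold change of 1 with glmTreat, 216 genes passed (40 higher, 176 lower), with 70 list members and 1 T cell gene among them, so the share of higher genes fell from 41.6% to 18.5%. With at least 10 counts in each of the 6 libraries, 534 genes were called, 531 of them shared with the main fit. DESeq2 called 779 genes, 770 of them shared with edgeR. With the 6 libraries alone, 754 were called. Leaving out 1 of the 6 libraries in turn gave 763 to 786 genes (309 to 330 higher, 445 to 464 lower), and 114 to 122 list members. Of the 779 genes called in the main fit, 683 to 697 were called again (87.7% to 89.5%). With the replicate number as a block, 785 genes were called, 777 of them shared with the fit without it. The labels do not say that the numbers pair the samples. Deviations of same-numbered libraries correlated at -0.01, -0.04 and -0.05 over 10514 genes, which with 3 libraries per group cannot settle the point. Of the 112 named genes called, 76 stayed called under each alternative that tested them. A change of direction was counted only for a gene called in the main fit or in the alternative. By that count, 0 of the 153 named genes changed direction. Early B cell genes gave 16 calls under every alternative run but the one with no fold limit, which gave 18. Calls near the limit, such as Il1b, Mt1, Pf4 and Ccr2, were among the 36 lost under at least 1 alternative. Genes with few counts, such as Mcpt4, are limited by depth.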

Other observations

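Genes that host or encode small nucleolar RNAs (snoRNAs) were higher with the GLP-1R agonist. snoRNAs guide the chemical modification of ribosomal RNA and are cut from introns of host transcripts, several of which are named Snhg and do not encode a protein. Gene symbols were grouped by their stem, which gave 160 stems with at least 10 tested members, and the grouping was made after values had been seen. The Snhg stem had the highest median, 1.04 on the log2 scale, with 8 of 12 members called higher, 0 lower and 12 passing the false discovery rate. Snhg5 had mean normalized counts of 1597 with the agonist and 786 with the antibody (log2 fold change 1.02, adjusted p = 5.76e-20, edgeR). Snhg3 had 1283 and 546 (1.23), Snhg7 203 and 79.6 (1.35), Snhg10 112 and 28.8 (1.95) and Snhg9 66.0 and 14.5 (2.16). For Snhg5 the vehicle mean was 1811, that of WT recipients 789 and that of Combo 609. The snoRNA genes themselves, named Snord and Snora, followed with medians of 0.89 (6 of 18 called higher, 0 lower) and 0.60 (3 of 18, 0 lower). The stem Mir came next, with a median of 0.56 (8 of 31 called higher, 1 lower). Of all genes 2.43% were called higher. Reads were not assigned by strand, and a read on a snoRNA within a host transcript may have been counted for both.

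Ribosomal protein genes differed less but widely. Of 49 genes with the stem Rpl, 45 passed the false discovery rate in the higher direction and 1 was called, with a median of 0.35, and of 44 with the stem Rps, 33 passed it in the higher and 6 in the lower direction, with a median of 0.34. Of called genes with a matching annotation, 18.8% of the higher and 7.99% of the lower ones were not protein coding, against 4.26% of all tested. The DNA replication and mitosis lists, 30 tested genes each, held 0 called genes by edgeR, with 21 and 20 passing the false discovery rate in the higher direction and medians of 0.15 and 0.14. At the share called among all genes, 5.83%, lists of this length would hold few calls.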
